A study of Rattus norvegicus with 20 samples.

Results

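Ribosomes are built from ribosomal RNA and a large set of ribosomal proteins (RPs), and liver cells carry separate sets for the cytosol and for the mitochondrion. The cytosolic ribosome joins a 60S and a 40S subunit and makes nearly all cell protein, while the mitochondrial ribosome joins a 39S and a 28S subunit and makes the few respiratory chain subunits that mitochondrial DNA encodes. Liver that regrows after surgery has to make new ribosomes, and RP gene promoters are rich in CpG and usually very active. NF-kB p65 is a transcription factor subunit that enters the nucleus on inflammatory or growth signals and binds near gene starts.

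DNA bound by p65 was pulled down with an antibody and read on tiling arrays of promoters (ChIP-chip), using male wild-type Sprague Dawley rats of 8 to 10 weeks and their livers. For 5 weeks before a 70% partial hepatectomy, ethanol supplied 36% of the calories of one set of rats, while pair-fed controls received carbohydrate instead. The groups were ethanol and carbohydrate at 0h with 3 arrays each, ethanol and carbohydrate at 1h with 3 arrays each, and ethanol and carbohydrate at 6h with 4 arrays each, 20 arrays in all. The 0h tissue was the left lateral and median lobes removed at surgery, and the 1h and 6h tissue was the remnant right and caudate lobes, so lobe and time cannot be told apart between 0h and later arrays. In whole liver, fewer cells of a type and less binding per cell cannot be told apart either, and since no RNA was measured the tissue was not checked against marker genes.

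The RP genes were all genes named in the authors' peak lists with a symbol of Rpl, Rps, Mrpl or Mrps followed by a number, leaving out the Rps6k kinases. The rule found 134 of 14368 listed genes: 70 cytosolic (43 of 60S and 27 of 40S), 63 mitochondrial (41 of 39S and 22 of 28S by symbol) and Rps19bp1, a gene for a protein that binds an RP and is not one itself, which stands in neither class. Every member had a peak on at least 1 array, since the lists supplied the names. Signal at a promoter is the mean over all probes within 5 kb of a listed start of log2 (p65 DNA over reference DNA), multiplied by −1 and centred on each array's median. The direction of the deposited ratio is not stated; between 99.9% and 100% of the authors' peaks lie below 0 in it, which is why it was turned, and with the deposited sign every rise below would be a fall. Base 2 of the logarithm is taken from the usual practice for these arrays, and the DNA in the reference channel is called input in the channel labels and IgG in the labelling text. All 134 members could be measured, on 135 promoters among 13938: 72 cytosolic (Rpl32 and Rpl37a have 2 starts each), 62 mitochondrial (Mrpl46 and Mrps11 share 1) and that of Rps19bp1. With another listed gene starting within 5 kb at 20 of 72 cytosolic and 21 of 62 mitochondrial promoters, part of their probes lie near that gene too.

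The array identifiers gave 4 runs, 11 slides and 16 animals, 4 of which had arrays at both of 2 times. Run 1 holds 0h arrays alone, while slide 6 of run 2 holds 1 array of ethanol 0h (replicate 2) beside 1 of ethanol 1h and 1 of carbohydrate 1h. The standard deviation of probe values was 0.529 on that 0h array, as on the 1h array of carbohydrate beside it (0.518), against 0.25 to 0.326 on the other 0h arrays. Over 11180 promoters with a known base composition (80.2% of all), signal correlated with GC content at r from −0.366 to 0.357 on the ethanol 0h arrays and from −0.295 to 0.378 on the carbohydrate 0h arrays. At later times r ran from 0.422 to 0.443 on the ethanol 1h arrays, from 0.279 to 0.443 on the carbohydrate 1h arrays, from −0.45 to −0.232 on the ethanol 6h arrays and from −0.38 to −0.0236 on the carbohydrate 6h arrays. Base composition thus moved with time on these arrays, and its part in the differences below was not tested.

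Promoter sequences of 4 genes named in the results show what the motif search did and did not find. They run from 250 bases before to 50 bases after the RefSeq start in assembly GRCr8, 5′ to 3′ on the gene's strand, and the capitals mark matches to CCGGAAG (the core bound by ETS factors), to AAGATGGC (the core bound by YY1) and to the NF-kB consensus of 10 bases, on either strand. Rpl18 had the largest fall between 1h and 6h and holds none of the 3 motifs, Mrpl52 fell in both diets (in carbohydrate the sign turned with the 500 bp window of highest signal) and holds CCGGAAG 2 times, Mrpl32 moved the other way and holds AAGATGGC, and Rps23 holds the NF-kB consensus.
Rpl18, chr1:105325020-105325319, plus strand: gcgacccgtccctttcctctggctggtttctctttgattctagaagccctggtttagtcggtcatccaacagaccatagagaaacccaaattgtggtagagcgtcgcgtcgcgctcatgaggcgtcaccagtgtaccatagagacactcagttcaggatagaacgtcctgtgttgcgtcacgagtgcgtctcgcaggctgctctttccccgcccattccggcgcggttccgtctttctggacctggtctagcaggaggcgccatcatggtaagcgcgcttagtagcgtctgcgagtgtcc
Mrpl52, chr15:31852686-31852985, plus strand: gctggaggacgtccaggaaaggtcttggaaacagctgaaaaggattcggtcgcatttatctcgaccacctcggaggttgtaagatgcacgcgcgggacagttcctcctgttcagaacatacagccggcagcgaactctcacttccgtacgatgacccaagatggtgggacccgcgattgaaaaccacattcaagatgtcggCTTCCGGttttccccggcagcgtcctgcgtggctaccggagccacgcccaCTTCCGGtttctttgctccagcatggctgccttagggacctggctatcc
Mrpl32, chr17:55260401-55260700, plus strand: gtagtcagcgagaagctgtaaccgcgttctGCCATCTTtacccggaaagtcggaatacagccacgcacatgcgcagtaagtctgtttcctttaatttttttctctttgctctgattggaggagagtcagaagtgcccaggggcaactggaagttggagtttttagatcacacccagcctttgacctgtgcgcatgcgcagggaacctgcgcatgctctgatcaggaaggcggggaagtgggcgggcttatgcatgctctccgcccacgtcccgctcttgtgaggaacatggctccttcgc
Rps23, chr2:23814267-23814566, plus strand: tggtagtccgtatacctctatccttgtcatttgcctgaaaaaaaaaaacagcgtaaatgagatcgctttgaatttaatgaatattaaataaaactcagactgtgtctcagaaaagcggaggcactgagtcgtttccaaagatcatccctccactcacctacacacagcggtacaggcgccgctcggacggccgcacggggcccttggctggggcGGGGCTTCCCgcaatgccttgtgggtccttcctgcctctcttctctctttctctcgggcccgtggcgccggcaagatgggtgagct
The Rps23 match begins 36 bases before the start and reads as the consensus on both strands.

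The NF-kB consensus was found in 4 of 55 cytosolic (7.27%) and 4 of 51 mitochondrial RP promoters with a sequence (7.84%), beside 8.6% of all 11468 promoters with one. CCGGAAG was found in 34.5% of the cytosolic and 33.3% of the mitochondrial promoters, beside 13.3% of all. AAGATGGC was found in 23.5% of the mitochondrial and 9.09% of the cytosolic promoters, beside 4.12% of all. The pyrimidine run CTTTCC, searched on both strands and able to overlap the NF-kB consensus, was found in 50.9% of the cytosolic and 33.3% of the mitochondrial promoters, beside 26.6% of all. The core bound by the factor NRF1, searched on both strands, was found in 15.7% of the mitochondrial and 5.45% of the cytosolic promoters, beside 7.39% of all, and TATAAA in 13.7% and 10.9%, beside 12.3%. Of the cytosolic genes 78.6% and of all listed genes 79.8% had a sequence, under the limit of 80% set here. A comparison of the base composition of the RP genes with that of the other genes is therefore void. The motif shares above come from the same sequences and carry the same limit. A start of another listed gene on the opposite strand lay within 1000 bp of 28.6% of mitochondrial RP genes and 12.9% of cytosolic ones, beside 6.74% of all listed genes.

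RP promoters carried the most p65 signal 1 h after hepatectomy in ethanol-fed rats. At 0h the median of the 72 cytosolic promoters averaged 0.047 ± 0.054 in ethanol and 0.034 ± 0.008 in carbohydrate (SD, n = 3 each). The wide spread in ethanol 0h comes from replicate 2, the array on slide 6, with 0.11 against 0.023 and 0.0087 on the others. At 1h it averaged 0.15 ± 0.04 on the ethanol 1h arrays, against 0.082 ± 0.032 on the carbohydrate 1h arrays (SD, n = 3 each). The median of the 62 mitochondrial promoters averaged 0.10 ± 0.04 on the ethanol 1h arrays, against 0.054 ± 0.019 on the carbohydrate 1h arrays. Over all promoters the same median was 0.028 ± 0.010 in ethanol and 0.014 ± 0.012 in carbohydrate. At 6h the cytosolic median was 0.011 ± 0.017 in ethanol and 0.025 ± 0.011 in carbohydrate, and the mitochondrial median −0.0019 ± 0.0225 in ethanol and 0.026 ± 0.023 in carbohydrate (n = 4 each).

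**Figure D1:**
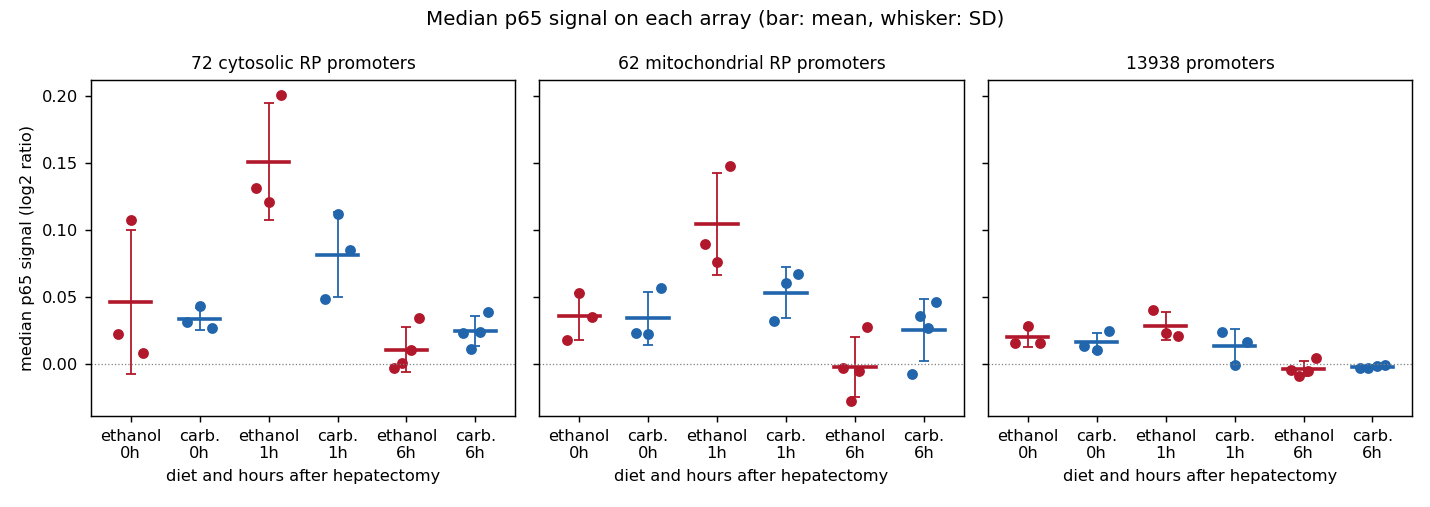
Median p65 signal (log2 ratio, y axis) of the cytosolic RP promoters, the mitochondrial RP promoters and all promoters on each array (points), by diet and hours after hepatectomy, with "carb." for carbohydrate; bars are group means and whiskers SD. The ethanol 1h arrays lie highest for both RP classes, from 0.12 to 0.20 for the cytosolic and from 0.076 to 0.15 for the mitochondrial, while the medians of all promoters lie between −0.0088 and 0.040.

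The difference between the class medians (cytosolic minus mitochondrial) ran at 0h from −0.026 to 0.054 in ethanol and from −0.030 to 0.020 in carbohydrate. At 1h the cytosolic class stood above the mitochondrial class on every array, by 0.042 to 0.054 in ethanol and by 0.016 to 0.052 in carbohydrate. At 6h the difference ran from 4.24e-05 to 0.028 in ethanol and from −0.024 to 0.031 in carbohydrate. The order of the classes was the same on all 1h arrays and varied among arrays at 0h and in carbohydrate at 6h.

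By position, the signal at 1h in ethanol was spread over the start and the transcribed side. In 500 bp bins the mean over cytosolic starts was 0.27 ± 0.05 in the first bin downstream, 0.28 ± 0.09 in the next and 0.23 ± 0.12 just upstream on the ethanol 1h arrays. The carbohydrate 1h arrays had 0.21 ± 0.05, 0.19 ± 0.07 and 0.098 ± 0.060 in these bins. Mitochondrial starts had 0.17 ± 0.09 in the first bin downstream on the ethanol 1h arrays, against 0.079 ± 0.057 on the carbohydrate 1h arrays. At 6h the bin just upstream of the start was the lowest of the profile, with −0.067 ± 0.038 at cytosolic and −0.10 ± 0.02 at mitochondrial starts in ethanol, and −0.030 ± 0.026 and −0.062 ± 0.043 in carbohydrate. Over all starts that bin had −0.073 ± 0.009 in ethanol and −0.070 ± 0.037 in carbohydrate at 6h, so a dip of this kind was seen at promoters in general. On the downstream side at 6h the cytosolic starts kept a positive mean, 0.061 ± 0.023 in ethanol and 0.11 ± 0.05 in carbohydrate in the first bin, where all starts had −0.050 ± 0.006 and −0.032 ± 0.045.

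**Figure D2:**
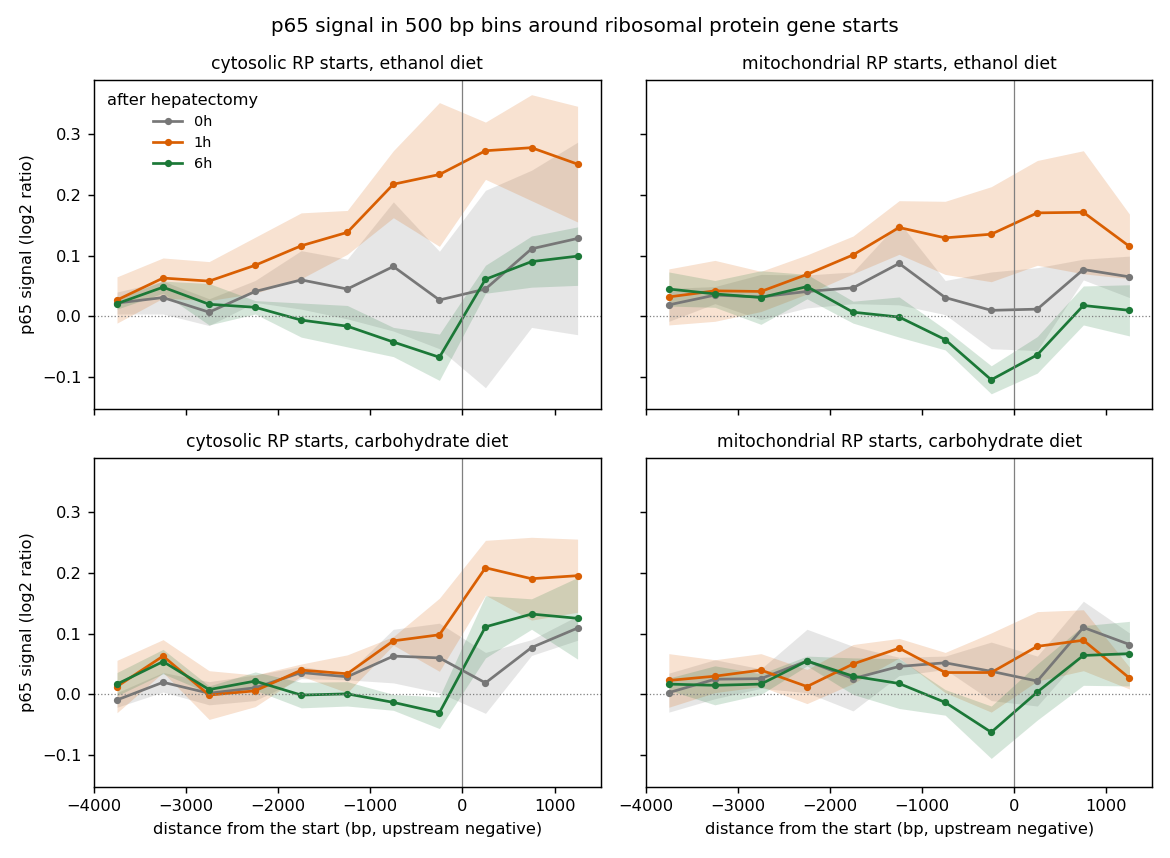
Mean p65 signal (log2 ratio, y axis) in 500 bp bins by distance from the gene start (x axis, bp, upstream negative) for cytosolic and mitochondrial RP starts in ethanol and carbohydrate diets; lines are group means at 0h, 1h and 6h and bands are the SD over arrays. In ethanol the 6h line dips to −0.067 at cytosolic and −0.10 at mitochondrial starts just upstream, while the 1h line peaks at 0.28 and 0.17.

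Between 6h and 1h p65 signal fell at 54.2% of cytosolic and 45.2% of mitochondrial RP promoters of ethanol-fed rats. In limma's test on all 20 arrays, adjusted by Benjamini-Hochberg across the 13938 promoters and called under 0.05, 39 of 72 cytosolic promoters fell and 1 rose, and 28 of 62 mitochondrial promoters fell and 2 rose. Of all promoters 28.4% fell and 20.2% rose. The median difference was −0.13 over the cytosolic, −0.099 over the mitochondrial and −0.049 over all promoters. By subunit, 26 of 45 promoters of 60S genes, 13 of 27 of 40S genes, 18 of 41 of 39S genes and 10 of 21 of 28S genes fell. Among promoters of known GC content, 39.6% of those over 65% GC and 35.5% of those from 50 to 65% GC fell. Of these 2 sets 3.47% and 6.41% rose, with median differences of −0.101 and −0.0847. Rises were thus few, and medians below that of all promoters, at GC-rich promoters in general as well as at RP promoters. Of promoters under 50% GC 7.95% fell and 58.3% rose. All 4 ethanol 6h arrays lay below all 3 ethanol 1h arrays at 38 cytosolic and 29 mitochondrial promoters, or 52.8% and 46.8%, beside 29.5% of all promoters. The promoter of Rps19bp1 fell by 0.27 ± 0.05 (limma adjusted p = 0.000386). The comparisons of 6h and 1h with 0h share the 0h arrays, and those between 6h and 1h and between 1h and 0h share the 1h arrays.

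Rpl18, a 60S protein gene on chromosome 1 whose probes also cover the start of Sphk2 on the other strand, fell most. Its signal was −0.17, −0.16, −0.15 and −0.15 on the ethanol 6h arrays, against 0.57, 0.52 and 0.42 on the ethanol 1h arrays. The groups lay far apart, and the log2 difference was −0.66 ± 0.09 (SE; limma adjusted p = 5.16e-05). In carbohydrate-fed rats it had −0.17, −0.05, −0.05 and −0.11 at 6h, against 0.25, 0.36 and 0.28 at 1h, a difference of −0.39 ± 0.09 (limma adjusted p = 0.00348).

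Rpl8, which encodes a 60S protein at the peptidyl transferase centre, had 0.04, 0.02, 0.14 and 0.12 on the ethanol 6h arrays, against 0.45, 0.56 and 0.39 on the ethanol 1h arrays. It fell by 0.38 ± 0.08 in ethanol (limma adjusted p = 0.0012) and stayed above 0 on all arrays of both times. Rpl19, of the 60S subunit, had −0.01, −0.06, −0.13 and −0.03 at 6h in ethanol, against 0.27, 0.28 and 0.37 at 1h, and fell by 0.36 ± 0.06 (limma adjusted p = 0.000101). Rpl10, which joins the 60S subunit late in its assembly, had −0.12, −0.04, 0.01 and −0.02 at 6h in ethanol, against 0.23, 0.34 and 0.27 at 1h, and fell by 0.32 ± 0.05 (limma adjusted p = 0.000135). None of these 3 promoters had an ethanol 6h array within the range of its ethanol 1h arrays.

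The mitochondrial falls were led by Mrpl12, the stalk protein of the 39S subunit, which also binds mitochondrial RNA polymerase. It had −0.22, −0.12, −0.11 and −0.17 on the ethanol 6h arrays, against 0.20, 0.39 and 0.26 on the ethanol 1h arrays, a difference of −0.44 ± 0.06 (limma adjusted p = 5.5e-05). Mrpl52, of the 39S subunit, had −0.07, −0.09, −0.02 and 0.08 at 6h in ethanol, against 0.37, 0.40 and 0.46 at 1h, a difference of −0.43 ± 0.08 (limma adjusted p = 0.000311). Both promoters separated the times completely.

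Mrps34, of the 28S subunit, had −0.12, −0.04, −0.10 and −0.04 on the ethanol 6h arrays, against 0.17, 0.47 and 0.21 on the ethanol 1h arrays, and fell by 0.36 ± 0.07 (limma adjusted p = 0.000543). Mrpl41, a 39S gene whose probes also cover the start of Pnpla7, had −0.04, −0.09, −0.02 and −0.05 at 6h in ethanol, against 0.20, 0.33 and 0.36 at 1h, and fell by 0.35 ± 0.05 (limma adjusted p = 5.35e-05). The times did not overlap at either promoter.

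The 3 promoters that rose stand apart from this pattern. Mrpl32, a 39S protein that a mitochondrial protease trims before it enters the ribosome, shares its probes with the start of the proteasome gene Psma2. It had 0.18, 0.15, 0.13 and 0.10 on the ethanol 6h arrays, against −0.20, −0.25 and −0.31 on the ethanol 1h arrays, a rise of 0.39 ± 0.08 (limma adjusted p = 0.000559). Mrpl45, a 39S protein near the exit of the peptide tunnel, had 0.34, 0.27, 0.19 and 0.36 at 6h in ethanol, against −0.004, −0.07 and 0.26 at 1h, and rose by 0.22 ± 0.07 (limma adjusted p = 0.0118) although 1 of the 1h arrays lay within the 6h range.

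The single cytosolic rise was at a start listed for Rpl32, a 60S gene, on chromosome 6 at position 145183709 of the build used in the files. This start had 0.20, 0.25, 0.29 and 0.25 on the ethanol 6h arrays, against 0.04, 0.04 and 0.07 on the ethanol 1h arrays, a rise of 0.20 ± 0.05 (limma adjusted p = 0.00201). The other Rpl32 start, on chromosome 3 at 112546829, had 0.03, 0.02, 0.01 and −0.02 at 6h in ethanol, against −0.04, −0.02 and 0.01 at 1h. RefSeq places Rpl32 in GRCr8 on neither of these chromosomes, and the same holds for 3 more of the 136 member starts, those of Mrpl36 and Rpl37 and the chromosome 5 start of Rpl37a. The Mrpl40 start lies on an unplaced piece of its own RefSeq chromosome.

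**Figure D3:**
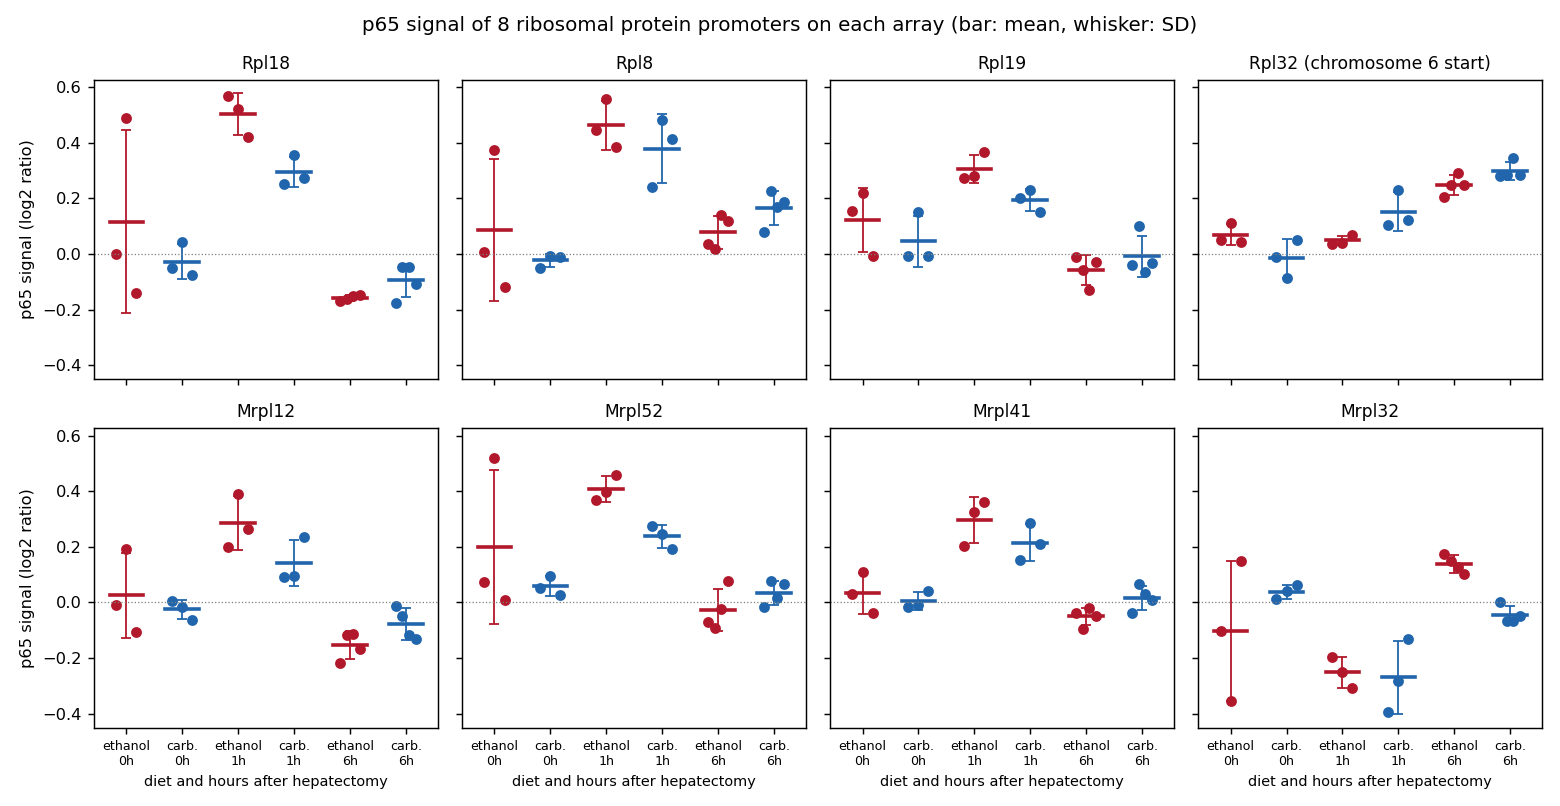
p65 signal (log2 ratio, y axis) on each array (points) at 8 RP promoters named for the largest falls and rises between 6h and 1h in ethanol, by diet and hours after hepatectomy, with "carb." for carbohydrate; bars are group means and whiskers SD. In ethanol Rpl18, Rpl8, Rpl19, Mrpl12, Mrpl52 and Mrpl41 are lower at 6h than at 1h, whereas the chromosome 6 start of Rpl32 and Mrpl32 are higher at 6h than at 1h.

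In carbohydrate-fed rats the falls between 6h and 1h were fewer. Here 18 of 72 cytosolic promoters fell and 4 rose, and 11 of 62 mitochondrial promoters fell and 6 rose, while of all promoters 19% fell and 18.2% rose. The median difference was −0.064 over the cytosolic, −0.035 over the mitochondrial and −0.015 over all promoters. The mitochondrial share of falls was 17.7% and so near that of all promoters. The 39 members called became 25 on dropping 1h replicate 1 and 24 on dropping 6h replicate 1. These were 28.9%, 18.5% and 17.8% of members, beside 37.3%, 19.4% and 24.3% of all promoters called in the same fits.

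Besides Rpl18, the cytosolic falls in carbohydrate included Rps21 and Rps18, both of the 40S subunit, with differences of −0.27 ± 0.07 and −0.24 ± 0.07 (limma adjusted p = 0.00577 and 0.0117). Rps21 had −0.05, −0.09, −0.03 and 0.01 on the carbohydrate 6h arrays, against 0.28, 0.25 and 0.16 on the carbohydrate 1h arrays, with no overlap. All carbohydrate 6h arrays lay below all carbohydrate 1h arrays at 36.1% of cytosolic and 27.4% of mitochondrial promoters, beside 25.3% of all. The mitochondrial falls were led by Mrps34 (−0.27 ± 0.07), Mrpl12 (−0.22 ± 0.06), Mrpl14 (−0.22 ± 0.06) and Mrpl52 (−0.20 ± 0.08), with limma adjusted p between 0.00728 and 0.0487. For Mrpl52 the sign turned with the 500 bp window of highest signal.

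The rises in carbohydrate were led by Mrpl15, a 39S gene with 0.17, 0.28, 0.26 and 0.33 at 6h, against −0.10, 0.08 and 0.03 at 1h, a difference of 0.26 ± 0.07 (limma adjusted p = 0.00921). In ethanol its difference was −0.01 ± 0.07. Mrps30 rose by 0.24 ± 0.07, Mrpl32 by 0.22 ± 0.08 and Mrpl44 by 0.20 ± 0.06. Among the cytosolic genes Rpl22l1, a paralog of the 60S gene Rpl22, rose by 0.18 ± 0.05, as did Rpl31 (0.18 ± 0.05) and the chromosome 6 start of Rpl32 (0.15 ± 0.05), with limma adjusted p between 0.011 and 0.0202. With only probes within 500 bp of the start, the sign turned for Mrpl15 and Rpl31.

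The diets had no arrays in common in these comparisons, but they shared slides. Slides 6, 7 and 8 each held a 1h array of both diets, and slide 9 held 6h arrays of both. The differences of the diets are thus not independent, and the part of shared slides in the overlap and correlation below was not tested. Of the 18 cytosolic promoters that fell in carbohydrate 17 also fell in ethanol, or 43.6% of the ethanol and 94.4% of the carbohydrate list. Of the 11 mitochondrial ones 9 did, or 32.1% of the ethanol and 81.8% of the carbohydrate list. Over all promoters 1855 fell in both diets, or 46.8% of the ethanol and 70% of the carbohydrate list. Across the 72 cytosolic promoters the differences of the diets correlated at Pearson r = 0.82, across the 62 mitochondrial at 0.75 and across all promoters at 0.83, as a description over promoters that share arrays.

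**Figure D4:**
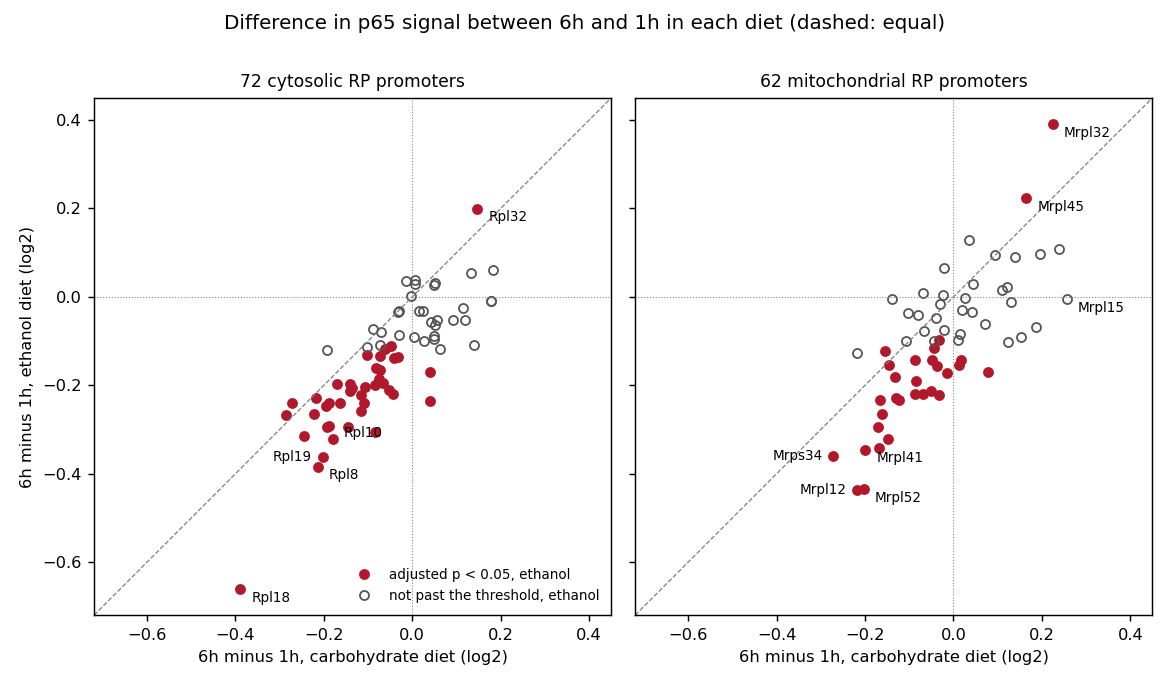
Difference in p65 signal between 6h and 1h (log2, 6h minus 1h) in ethanol (y axis) against carbohydrate (x axis) for each cytosolic and mitochondrial RP promoter (points); filled points have a limma adjusted p under 0.05 in ethanol and the dashed line marks equal differences. Of the cytosolic promoters 63 of 72 and of the mitochondrial promoters 48 of 62 lie below the dashed line.

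The difference was lower in ethanol than in carbohydrate at 63 of 72 cytosolic (87.5%) and 48 of 62 mitochondrial promoters (77.4%), beside 58.4% of all promoters. The median of this diet difference was −0.093 over the cytosolic, −0.094 over the mitochondrial and −0.022 over all promoters. As a test of the difference itself, limma's interaction term called 0 of the 135 member promoters, and 0% of all promoters in either direction. At an unadjusted p under 0.05 it had 12 cytosolic promoters, all lower in ethanol, and 16 mitochondrial, 15 of them lower in ethanol. These were 16.7% and 25.8%, beside 12.1% of all promoters in both directions together. By direction, 1183 of all 13938 promoters were lower and 506 higher in ethanol at this p. The smallest p among cytosolic promoters were at Rps25, of the 40S subunit (−0.28 ± 0.07, limma adjusted p = 0.262), and Rpl28, of the 60S subunit (−0.22 ± 0.07, limma adjusted p = 0.28). The mitochondrial ones were Mrpl16 (−0.23 ± 0.07, limma adjusted p = 0.263) and Mrps35 (−0.25 ± 0.07, limma adjusted p = 0.265). On the 11 arrays of run 3 alone, a setting chosen after the data were seen, the interaction called 8 cytosolic and 9 mitochondrial promoters lower in ethanol and 1 mitochondrial promoter higher, beside 5.7% and 3.55% of all promoters. Without ethanol 1h replicate 1, 9 members (6.67%) were called, beside 4.91% of all promoters.

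At 1h the ethanol arrays were directly compared with the carbohydrate arrays. Signal was higher in ethanol at 63 of 72 cytosolic and 46 of 62 mitochondrial promoters, beside 8424 of all 13938. The medians were 0.065 and 0.057, beside 0.024 over all promoters. Of promoters over 65% GC, 2032 of 2736 were higher in ethanol, with a median of 0.053, so the mitochondrial class was near these. Limma called 0 of these promoters, and 0% of all, in either direction. At an unadjusted p under 0.05 there were 16 cytosolic promoters, all higher in ethanol, and 11 mitochondrial, 9 higher and 2 lower. These were 22.2% and 17.7% of the classes, beside 17.8% of all promoters, both directions together. By direction, 1722 of all 13938 promoters were higher and 758 lower in ethanol at this p. Rps25, whose probes also cover the start of Trappc4, had 0.12, 0.29 and 0.33 in ethanol, against −0.05, 0.10 and 0.08 in carbohydrate, a difference of 0.20 ± 0.05 (limma adjusted p = 0.0756). The groups did not overlap at Rps25, which was named for the smallest p of its class. All ethanol 1h arrays lay above all carbohydrate 1h arrays at 13.9% of cytosolic and 12.9% of mitochondrial promoters, beside 11.5% of all. Rpl36al differed by 0.23 ± 0.07 (limma adjusted p = 0.0966), Mrps35 by 0.20 ± 0.06 (0.0931) and Mrpl16 by 0.16 ± 0.05 (0.131).

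Each of slides 6, 7 and 8 held a 1h array of both diets, which allows a comparison within slides. The median over cytosolic promoters of ethanol minus carbohydrate was 0.098 on slide 6, 0.022 on slide 7 and 0.10 on slide 8, with 58, 40 and 58 of 72 promoters higher in ethanol. For mitochondrial promoters it was 0.060, 0.031 and 0.057, with 48, 35 and 45 of 62 higher. For all promoters it was 0.028, 0.036 and 0.0061, with 59.6%, 60.5% and 51.7% higher. Slide 7 thus put both RP classes below all promoters, by median and by share higher in ethanol, unlike slides 6 and 8. With array run as a term the same comparison called 13 cytosolic and 9 mitochondrial promoters higher in ethanol and none lower, beside 8.29% of all promoters higher and 3.91% lower. Without ethanol 1h replicate 1, 16 members (11.9%) were called, beside 10.6% of all promoters, and without carbohydrate 1h replicate 3, 1, beside 1.06% of all.

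Slides 7 and 8 each held a 6h and a 1h array of 1 diet. On slide 8 the ethanol 6h array lay below the ethanol 1h array at 67 of 72 cytosolic and 50 of 62 mitochondrial promoters (medians −0.19 and −0.16), beside 56.9% of all promoters. On slide 7 the carbohydrate 6h array lay below the carbohydrate 1h array at 58 cytosolic and 36 mitochondrial promoters (medians −0.095 and −0.019), beside 48.7% of all. On the arrays of run 3 alone, 44 cytosolic promoters fell and 1 rose in ethanol and 32 mitochondrial fell and 5 rose, beside 33.9% of all promoters that fell and 24.5% that rose.

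At 6h limma called 0 promoters, members or others, between the diets (0% of all), with an unadjusted p under 0.05 at 1 cytosolic and 3 mitochondrial promoters (1.39% and 4.84%), beside 4.79% of all. The median of ethanol minus carbohydrate was −0.019 over the cytosolic, −0.031 over the mitochondrial and −6.46e-04 over all promoters. Mrpl32 had the largest difference named there, with 0.14 ± 0.03 in ethanol and −0.045 ± 0.032 in carbohydrate (SD, n = 4 each). The diets did not overlap at Mrpl32, with a limma adjusted p of 0.937. It was named for its small p, and the share of all promoters without overlap was not counted at 6h. Mrpl23 differed by −0.11 ± 0.04, Rpl9 by 0.12 ± 0.05 and the chromosome 5 start of Rpl37a by −0.07 ± 0.04, each with a limma adjusted p of 0.937.

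At 0h limma called 0 promoters between the diets too (0% of all), with an unadjusted p under 0.05 at 3 cytosolic and 0 mitochondrial promoters (4.17% and 0%), beside 5.93% of all. The smallest p were at Rpl36a (0.17 ± 0.06), Rps13 (−0.11 ± 0.05), Mrps18b (0.12 ± 0.06) and Mrps30 (−0.15 ± 0.07), each with a limma adjusted p of 0.698.

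Between 1h and 0h, limma found 16 of 72 cytosolic promoters higher and 3 lower in carbohydrate, and 9 of 62 mitochondrial higher and 7 lower, beside 15.1% of all promoters higher and 21.1% lower. The median difference was 0.052 over the cytosolic, 0.012 over the mitochondrial and −0.0076 over all promoters. In ethanol 10 cytosolic and 7 mitochondrial promoters rose and none fell, beside 3.57% and 1.66% of all, with medians of 0.10, 0.064 and 0.011. These calls rest on a comparison across array runs. With array run as a term no member was called in either diet, and in ethanol none was called in a fit of only the arrays compared. The fit with array run ties 0h to later times, in both diets, through ethanol 0h replicate 2 alone. Calls lost and signs turned under it, here and below, carry that limit. In ethanol the 17 members called were 2, 55 and 0 without replicate 1, 2 or 3 of 0h, and 38, 0 and 1 without replicate 1, 2 or 3 of 1h. The 17, 55 and 38 were 12.6%, 40.7% and 28.1% of the members, beside 5.23%, 33% and 18.7% of all promoters. In carbohydrate the 35 members called were 12 without 0h replicate 3, 23 without 1h replicate 1 and 20 without 1h replicate 2. As shares these were 25.9%, 8.89%, 17% and 14.8% of members, beside 36.1%, 14.5%, 22.1% and 24.4% of all promoters.

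The 0h array of ethanol replicate 2 and the ethanol 1h replicate 1 array came from the same animal and the same slide. Between them the median difference (1h minus 0h) was 0.011 over cytosolic, 0.0094 over mitochondrial and 0.015 over all promoters. The pair of arrays from 1 carbohydrate-fed animal on different slides had 0.0065, −0.0029 and 0.0032. The class medians thus differed little within these 2 animals, while single genes could differ more. In the carbohydrate-fed animal Rpl8 had 0.24 at 1h, against −0.01 at 0h, and Rpl18 0.25 at 1h, against 0.04 at 0h. Both genes were named for large rises on these same arrays. The 1h array of this animal came from run 2 and its 0h array from run 1, with probe standard deviations of 0.518 and 0.25. Time and run therefore cannot be told apart in this pair.

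Rpl8 had the largest rise in carbohydrate, with 0.24, 0.48 and 0.41 at 1h, against −0.05, −0.01 and −0.01 at 0h, a difference of 0.40 ± 0.09 (limma adjusted p = 0.00468). Rpl18 rose by 0.32 ± 0.09. Mrps34 rose by 0.30 ± 0.08, Mrps2 by 0.23 ± 0.06, Mrpl38 by 0.23 ± 0.06 and Mrpl41 by 0.21 ± 0.05. In ethanol Rpl18 rose by 0.39 ± 0.09, Rpl8 by 0.38 ± 0.09, Rpl10 by 0.29 ± 0.06, Mrps34 by 0.30 ± 0.08, Mrpl41 by 0.26 ± 0.05, Mrpl12 by 0.26 ± 0.06 and Mrpl38 by 0.25 ± 0.06. With array run as a term the sign turned for Rpl8, Rpl18, Mrps34, Mrps2 and Mrpl38 in carbohydrate, and for Mrps34 also with only probes within 500 bp of the start.

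The falls in carbohydrate between 1h and 0h were led by Rpl22l1, with −0.19, −0.24 and −0.15 at 1h, against 0.15, 0.11 and 0.14 at 0h, a difference of −0.33 ± 0.06 (limma adjusted p = 0.00176). Mrpl32 fell by 0.31 ± 0.08, Mrps9, of the 28S subunit, by 0.29 ± 0.07, Mrpl44 by 0.25 ± 0.06 and Mrps30 by 0.25 ± 0.07. The 40S genes Rps13 and Rps23 fell by 0.15 ± 0.05 and 0.12 ± 0.04. With the 500 bp window of highest signal in place of the 5 kb mean, the sign turned for Rpl22l1, Rps13, Rps23 and Mrps9, and with array run as a term for Mrpl32. With only probes within 500 bp of the start it turned for Rps13 and Rps23 too.

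Between 6h and 0h, 2 cytosolic promoters rose and 1 fell in carbohydrate, and 2 mitochondrial promoters fell, beside 4.2% of all promoters higher and 5.35% lower. The chromosome 6 start of Rpl32 had 0.28, 0.28, 0.35 and 0.28 at 6h, against −0.01, −0.09 and 0.05 at 0h, a rise of 0.31 ± 0.05 (limma adjusted p = 0.00177). Rps7 fell by 0.18 ± 0.05, Mrps9 by 0.26 ± 0.07 and Mrpl51 by 0.16 ± 0.04 (limma adjusted p = 0.0199, 0.0173 and 0.0221). For Rps7 the sign turned with the 500 bp window and with probes within 500 bp of the start, and for Mrps9 with array run as a term. The 5 members called (3.7%, beside 9.54% of all promoters) were 2 or 1 without replicate 1 or 2 of 0h. Without replicate 1, 2 or 4 of 6h they were 3, 1 and 3. In these fits 3.79%, 0.201%, 6.67%, 4.41% and 3.98% of all promoters were called.

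In ethanol limma called 0 promoters between 6h and 0h (0% of all), with an unadjusted p under 0.05 at 13 cytosolic and 10 mitochondrial members. These were 18.1% and 16.1% of the classes, below the 28.3% of all promoters at this p. The smallest p were at the chromosome 6 start of Rpl32 (0.18 ± 0.05, limma adjusted p = 0.0583), Rpl38 (−0.17 ± 0.05, 0.0636), Mrpl32 (0.24 ± 0.08, 0.073) and Mrpl12 (−0.18 ± 0.06, 0.0808). Leaving out ethanol 0h replicate 3 gave 25 members called (18.5%), beside 27.4% of all promoters. Array run as a term gave 24 cytosolic promoters lower, 16 mitochondrial lower and 1 higher, beside 14% of all promoters lower and 15.4% higher. That fit too ties 0h to later times through ethanol 0h replicate 2 alone. For the difference between the diets in the change between 1h and 0h, limma's interaction term called 0 members (0% of all), where an unadjusted p under 0.05 was found at 11 cytosolic and 7 mitochondrial promoters (15.3% and 11.3%), beside 19.3% of all. Its smallest p were at Rps25 (0.28 ± 0.07, limma adjusted p = 0.0989), Rpl22l1 (0.28 ± 0.08, 0.106), Mrpl16 (0.21 ± 0.07, 0.134) and Mrps30 (0.29 ± 0.10, 0.152). Without ethanol 1h replicate 1 it called 11 members (8.15%), beside 10.7% of all promoters.

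The authors' peak lists gave a second view of the same arrays. A gene was called bound in a group where 2 or more arrays listed a peak for it. By this measure 13 of 70 cytosolic (18.6%) and 10 of 63 mitochondrial RP genes (15.9%) were bound at 0h in ethanol, beside 19.7% of all listed genes, and 15 (21.4%) and 14 (22.2%) in carbohydrate, beside 20.6%. At 1h in ethanol 49 cytosolic (70%) and 35 mitochondrial genes (55.6%) were bound, beside 41.6% of all. At 1h in carbohydrate 28 cytosolic (40%) and 20 mitochondrial genes (31.7%) were bound, beside 28.8% of all. At 6h 18 cytosolic (25.7%) and 11 mitochondrial genes (17.5%) were bound in ethanol, beside 30.2% of all, and 30 (42.9%) and 21 (33.3%) in carbohydrate, beside 39.6% of all. Both classes were thus above the share of all genes at 1h in ethanol and below it at 6h in ethanol. With the same number of top scoring peaks kept on each array, 2874 as in the shortest list, 7 cytosolic (10%) and 6 mitochondrial genes (9.52%) were bound at 6h in ethanol, beside 18.8% of all listed genes, and 25 (35.7%) and 11 (17.5%) at 1h in ethanol, beside 14%. In these lists the cytosolic class lay above all genes at 1h, the mitochondrial class lay near them at 1h, and both lay below them at 6h. Over both classes and Rps19bp1, the 85 genes bound at 1h in ethanol were 45 without replicate 2 and 41 without replicate 3, and the 48 in carbohydrate were 26 and 21. The 23 bound at 0h in ethanol were 13, 9 and 13 without replicate 1, 2 or 3, and the 29 in carbohydrate were 10 and 16 without replicate 2 or 3. With an array left out, both others must hold a peak, and all listed genes were not counted in that way.

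**Figure D5:**
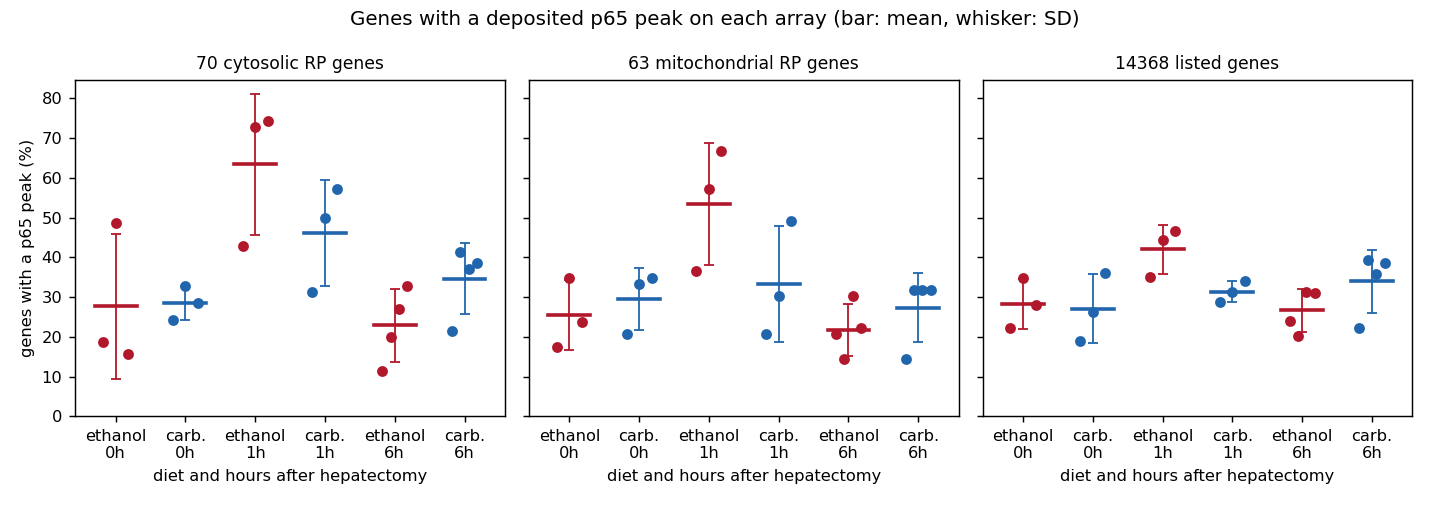
Percent of cytosolic RP genes, mitochondrial RP genes and all listed genes with a deposited p65 peak (y axis) on each array (points), by diet and hours after hepatectomy, with "carb." for carbohydrate; bars are group means and whiskers SD. In ethanol the cytosolic share is 22.9% on average at 6h and 63.3% at 1h, where all listed genes have 26.6% at 6h and 42% at 1h.

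Of the 28 cytosolic genes bound at 1h in carbohydrate 25 were also bound at 1h in ethanol, or 51% of the ethanol and 89.3% of the carbohydrate list. Of the 20 mitochondrial ones 17 were, or 48.6% and 85%. Over all listed genes the overlap was 48.6% of the ethanol and 70.1% of the carbohydrate list. Of 18 cytosolic genes bound in ethanol at 6h, 14 were among the 49 bound at 1h, or 77.8% of the 6h and 28.6% of the 1h list. Of 11 mitochondrial genes 7 were among 35, or 63.6% and 20%, beside 31.5% and 22.9% over all listed genes.

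Rpl28 had a peak on 17 of 20 arrays, the most in its class, and Rps29 on 16, Rpl8 on 14 and Rpl7 on 14. The highest peak at Rpl8, with a score of 1.09 and an FDR of 0, lay at chr7:114953744-114954990 in the build of the files, with its centre 110 bp downstream of the start. Peak scores are the authors' own values. Mrpl15 had a peak on 17 arrays, Mrpl17 on 14 and Mrps18b, Mrpl41 and Mrps34 on 13 each. The highest score at a member was 1.86, at Mrps18b on the ethanol 0h replicate 2 array, centred at −1515 bp from the start. In the cytosolic class 1 gene and in the mitochondrial class 9 genes had a peak on 1 array only, and the median gene of each class had one on 7 and 6 arrays, as all listed genes had on 6.

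Peaks lay within 500 bp of the start in 25.4% of the 686 cytosolic and 20.8% of the 544 mitochondrial peak assignments, beside 18.9% of all. At 6h in ethanol the cytosolic, mitochondrial and overall shares were 25.3%, 15.5% and 22%, against 31%, 23.6% and 17% at 1h. The median cytosolic peak centre lay at −1354 bp from the start at 6h in ethanol, against −493 bp at 1h. Mitochondrial peaks had −1871 against −701 bp and those of all listed genes −1439 against −983 bp. In carbohydrate the cytosolic median was −1566 bp at 6h, against −666 bp at 1h.

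Other gene lists were set beside the RP genes between 6h and 1h in ethanol, where 28.4% of all promoters fell and 20.2% rose. Of 6 promoters of RP genes with other kinds of names (the stalk genes and Rpsa among them) 5 fell and none rose, with a median of −0.34. Rplp0, listed as Arbp and encoding the stalk base, fell by 0.35 ± 0.07. Of 35 promoters of cytosolic translation factors 18 fell and 3 rose (median −0.11), with Eef2, the translocation factor, falling by 0.48 ± 0.09 and Eef1g by 0.36 ± 0.06. Of 32 ribosome biogenesis promoters 10 fell and 1 rose (median −0.067), led by the snoRNP gene Nop56, listed as Nol5a (−0.38 ± 0.05), and Polr1d, whose probes also cover the start of Lnx2 (−0.26 ± 0.07). Of 20 promoters of mitochondrial translation factors and tRNA synthetases 5 fell and none rose (median −0.056), led by the elongation factor gene Tufm (−0.28 ± 0.05) and Iars2, whose probes also cover the start of Bpnt1 (−0.24 ± 0.05). Of 22 promoters of known NF-kB targets 13 fell and 2 rose (median −0.21), led by Cxcl1 (−0.45 ± 0.07) and Gadd45b (−0.43 ± 0.08). The biogenesis and mitochondrial translation lists thus fell at shares near that of all promoters.

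In carbohydrate between 6h and 1h, 4 of the 6 promoters of RP genes with other kinds of names fell, 7 of 35 translation factor promoters fell and 2 rose, and 7 of 32 biogenesis promoters fell and 1 rose. Of the 20 mitochondrial translation promoters 3 fell and 3 rose, and of the 22 NF-kB target promoters 9 fell and 4 rose, beside 19% of all promoters that fell and 18.2% that rose. Between the diets at 1h limma called 0 promoters of each list.

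Within the RP classes the falls in ethanol between 6h and 1h were counted by motif. Of 19 cytosolic promoters with CCGGAAG 12 fell (median −0.16) and of 37 without it 20 (median −0.14). Of 17 mitochondrial promoters with it 7 fell (median −0.091) and of 33 without it 15 (median −0.098). With AAGATGGC 5 of 12 mitochondrial promoters fell, and 17 of 39 without it. With the NF-kB consensus 3 of 4 cytosolic and 2 of 4 mitochondrial promoters fell, and without it 29 of 52 and 20 of 46. With the NRF1 core 3 of 3 cytosolic promoters fell (median −0.25), and 29 of 53 without it, while 2 of 8 mitochondrial promoters with it fell (median 0.047), and 20 of 42 without it (median −0.098). With TATAAA 3 of 6 cytosolic and 0 of 6 mitochondrial promoters fell, and without it 29 of 50 and 22 of 44. With AAGATGGC 3 of 5 cytosolic promoters fell, and 29 of 51 without it, and with CTTTCC 16 of 29 cytosolic and 6 of 16 mitochondrial promoters fell, and 16 of 27 and 16 of 34 without it. These counts are small and were not tested. A promoter with several genes can stand on both sides of such a count.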

How the data were processed

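Values came from 20 arrays of 713735 probes. The log2 ratios were deposited by the authors in 1 table, already centred near 0 (medians −0.0249 to 0.0170), with direction and log base not stated. The peak score and the false discovery rate (a q-value, listed up to 0.19961) of each peak were deposited by the authors in 1 list per array, mapped to gene starts, with 2874 to 9387 peaks. The genome build, the normalization and the peak caller are not given in the sources used here, so coordinates are those of the files.

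The number of arrays limits the precision. Ratios were multiplied by −1, centred on the array median and averaged over probes within 5 kb of each start (at least 10 probes, median 51). Starts with the same probes were 1 promoter, giving 13938. Groups came from the sample labels, and runs, slides and animals from the array identifiers. limma 3.58.1 (R 4.3.3; trended variance, 14 residual degrees of freedom) fitted 6 group means and p-values were adjusted by Benjamini-Hochberg over all promoters. Of 200 promoters changed by 0.3 in simulated data, 78% were recovered between 6h and 1h in ethanol. Its noise was independent between arrays and promoters, and smaller changes were not simulated, so it does not give the power in these data. Python 3.11.15 was used for the counts. Named genes were the 4 largest rises and falls of each class among those called, or the 2 smallest p where none was called; some of them are not reported here. The members, the gene lists and the tests were chosen with earlier results of these data known. RefSeq promoters (GRCr8) were matched by transcript accession, then by symbol where that failed, for 107 of 134 members. Alternatives were other windows, normalizations, blocks and arrays left out. Samples with the same replicate number did not deviate together, so the numbers were not used as pairs.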

Additional observations from a re-analysis of the deposited data

Results flagged for a closer look

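In groups of 4 arrays, 82 sets of values were tested for 1 array far from the other 3, and 6 stood out, where chance gives about 5% of such sets. At 6h in carbohydrate, 14.3% of mitochondrial RP genes had a peak on replicate 1, the array of run 4, against 31.7% on each of the other arrays. At 6h in ethanol, replicate 3 stood apart at Mrpl51 (−0.134, others −0.055 to −0.041) and at Rps25 (0.0895, others −0.0279 to −0.00813). At 6h in carbohydrate, replicate 3 stood apart at the chromosome 6 start of Rpl32 (0.346, others 0.28 to 0.285) and at the chromosome 5 start of Rpl37a (0.103, others 0.0579 to 0.0628), and replicate 2 at Rpl28 (0.131, others 0.0514 to 0.0649).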

How the results depend on the processing

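Counts below are of all 135 member promoters called, or of all 134 genes bound. Array run as a term ties 0h to later times through ethanol 0h replicate 2 alone. Here and in the next paragraph, brackets give the share of members called, then that of all promoters. Between 6h and 1h in ethanol 71 were called (52.6%, 48.7%) and 45 with the 500 bp window of highest mean (33.3%, 25.6%). Without 1 array there were 53 (39.3%, 42.2%) to 69 (51.1%, 40.6%). In carbohydrate 39 were called (28.9%, 37.3%), 13 with that window (9.63%, 24.4%) and 18 with probes within 500 bp (13.3%, 21.3%). Array weights gave 64 (47.4%, 51.2%), and leaving out 1 array 24 (17.8%, 24.3%) to 35 (25.9%, 34.9%). Between 1h and 0h in carbohydrate 35 were called (25.9%, 36.1%), 16 with the window (11.9%, 11.5%) and 6 within 500 bp (4.44%, 8.47%). Array run gave 0 (0%, 0%) and weights 53 (39.3%, 48.1%). Without 1 array there were 12 (8.89%, 14.5%) to 31 (23%, 32.1%). In ethanol 17 were called (12.6%, 5.23%), 1 with the window (0.741%, 0.251%) and 1 within 500 bp (0.741%, 0.151%). Array run gave 0 (0%, 0.00717%) and only the arrays compared 0 (0%, 0%). Slide as a random block gave 6 (4.44%, 2.38%) and weights 76 (56.3%, 54.6%). Without 1 array there were 0 (0%, 0%) to 55 (40.7%, 33%). Between 6h and 0h in carbohydrate 5 were called (3.7%, 9.54%), 15 with the window (11.1%, 22.1%) and 15 with array run (11.1%, 11.9%). Only the arrays compared gave 12 (8.89%, 22.3%), quantile normalization 8 (5.93%, 12%) and weights 37 (27.4%, 45.4%). Without 1 array there were 1 (0.741%, 0.201%) to 6 (4.44%, 9.97%). In ethanol 0 were called (0%, 0%), 42 with array run (31.1%, 29.5%) and 13 with weights (9.63%, 8.47%). Scaling gave 2 (1.48%, 6.17%), quantile normalization 3 (2.22%, 6.29%) and leaving out 1 array 0 (0%, 0%) to 25 (18.5%, 27.4%).

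Between the diets 0 were called at each time. Array weights gave 15 at 0h, 7 at 1h and 18 at 6h (11.1%, 5.19% and 13.3% of members, beside 13.3%, 7.3% and 15.5% of all promoters), and leaving out 1 array gave 0 to 0, 0 to 16 and 0 to 0. At 1h array run gave 22 (16.3%, 12.2%) and slide as a random block 11 (8.15%, 7.63%). Among settings chosen after seeing the data, run 3 alone gave 17 (12.6%, 12%) and slide as a fixed term 23 (17%, 14%). For the diet difference in the change between 1h and 0h (0 called), array run gave 2 (1.48%, 1.65%) and weights 21 (15.6%, 17.1%). Leaving out 1 array gave 0 to 11 (8.15%, 10.7%). For that between 6h and 1h (0 called), array run gave 8 (5.93%, 2.86%) and weights 25 (18.5%, 11.8%). Run 3 alone, also chosen after seeing the data, gave 19 (14.1%, 9.25%), and leaving out 1 array 0 to 9 (6.67%, 4.91%). With the replicate number as a block, 73 were called between 6h and 1h in ethanol (54.1%, 47.8%) and 38 in carbohydrate (28.1%, 37.8%). Between 1h and 0h it gave 39 in carbohydrate (28.9%, 37.8%) and 19 in ethanol (14.1%, 6.64%). No call of a named gene changed with this block.

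Genes bound at 0h, 1h and 6h in ethanol were 23, 85 and 29. An FDR of at most 0.05 left 4, 52 and 8, and lists of equal length 13, 36 and 13. At that FDR cytosolic shares were 2.86%, 47.1% and 2.86%, mitochondrial shares 3.17%, 30.2% and 9.52% and all-gene shares 4.21%, 20% and 10.6%. In equal lists cytosolic shares were 8.57%, 35.7% and 10%, mitochondrial shares 11.1%, 17.5% and 9.52% and all-gene shares 11%, 14% and 18.8%. Peaks within 1000 bp gave 12 at 0h and 13 at 6h. Cytosolic shares were then 10% and 11.4%, mitochondrial shares 7.94% and 7.94% and all-gene shares 6.86% and 14.7%. In carbohydrate genes bound were 29, 48 and 52, with 9, 22 and 16 at that FDR, 17, 29 and 22 within 1000 bp and 17, 29 and 17 in lists of equal length. At that FDR cytosolic shares were 7.14%, 21.4% and 11.4%, mitochondrial shares 6.35%, 11.1% and 12.7% and all-gene shares 4.89%, 10.5% and 14.3%. Within 1000 bp all-gene shares were 9.16%, 13.7% and 19.7%, and in equal lists 13.5%, 14.6% and 19.8%. Without 1 array the ranges were 9 to 13, 41 to 75 and 21 to 24 in ethanol and 10 to 21, 21 to 41 and 39 to 46 in carbohydrate. All listed genes were not counted with an array left out.

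Named genes kept their direction and call under 657 of the alternatives, lost the call under 162 and turned their sign under 19, all of these in carbohydrate. Between 1h and 0h in carbohydrate, array run gave −0.10 at Rpl8, −0.22 at Rpl18, −0.007 at Mrps34, −0.10 at Mrps2, −0.093 at Mrpl38 and 0.037 at Mrpl32. The window gave 0.029 at Rpl22l1, 0.32 at Rps13, 0.26 at Rps23 and 0.004 at Mrps9, and probes within 500 bp 0.27 at Rps13, 0.023 at Rps23 and −0.026 at Mrps34. Between 6h and 0h in carbohydrate, Rps7 had 0.145 with the window and 0.02 within 500 bp, and Mrps9 0.028 with array run. Between 6h and 1h in carbohydrate, probes within 500 bp gave −0.075 at Rpl31 and −0.002 at Mrpl15, and the window 0.08 at Mrpl52. The causes were not tested. The standard error of a difference between 6h and 1h had a median of 0.056, so differences near it were not detectable.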
